A study of Mus musculus with 6 samples.

Results

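Sulfatases remove sulfate groups from glycosaminoglycans, sulfolipids and steroids, and they become active only after a cysteine in their catalytic site has been converted to formylglycine in the endoplasmic reticulum. Sumf1 encodes the enzyme that makes this conversion for the whole family, and its loss in people impairs the whole family, a lysosomal storage disorder called multiple sulfatase deficiency. Sumf2 encodes a related protein of the endoplasmic reticulum that binds sulfatases but lacks the activating function. The 8 genes described here are these 2 together with Arsg and Arsk, which encode lysosomal sulfatases of glycosaminoglycans, Arsi and Arsj, arylsulfatase family members whose substrates are less well known, and Sulf1 and Sulf2, which encode endosulfatases that trim heparan sulfate at the cell surface. They were taken by gene symbol from the array's annotation, and all 8 were found among 16583 named genes, each with 1 transcript cluster (the probe set that reads a gene on this array). The set was selected on the knockdown against empty vector values of these same arrays, in which Sumf1 had stood out among lysosomal genes, together with what the genes encode. Their differences between the groups are therefore given as a description, without tests.

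RNA came from Neuro2a cells, a line that was established from a mouse neuroblastoma and has neuronal features. In 3 samples the cells had received an empty vector (called control in the labels), and in 3 they had received vectors for microRNA-type RNA interference against both Usf1 and Usf2. Both groups were transfected, and the share of cells that took up a vector is not given in the sources used here. USF1 and USF2 are E-box-binding transcription factors of the helix-loop-helix family, and the series set out to find genes downstream of them. Each sample was read on 1 Affymetrix Mouse Gene 1.0 ST array. Replicates are labelled biological, but separate cultures are not named, so the replicate spread behind every p-value here could be technical.

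The deposited values are relative log2 signals, in which each cluster has a median of 0 over the 6 arrays. They allow a gene to be compared between arrays but hold no level, so one gene's expression cannot be set against another's. Rounding of the numbers placed 9975 clusters in a brighter class (before centring, 8 to 16 in log2 units) and 12901 in a dimmer one (4 to 8), and left 15 unplaced. Sumf1, Sumf2 and Sulf1 lay in the brighter class, Sulf1 by only 4 usable arrays, and the other 5 genes in the dimmer one. Knockdown array 2 had the widest spread, with a standard deviation of 0.159 over all clusters against 0.0531 to 0.0780 on the other 5 arrays. On that array the dimmer class had a median of 0.0707 and the brighter class one of -0.0282. Both targets were lower after knockdown, Usf1 at 0.682-fold and Usf2 at 0.770-fold, with no overlap between the groups (exact two-sided permutation p = 0.10 each, the smallest that 3 against 3 arrays allow). Their limma adjusted p values over all genes were 0.320 and 0.348, so neither passed 0.05 in the main fit.

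Sumf1 was the 1 gene of the 8 whose promoter window held the E-box hexamer CACGTG, to which USF factors bind. The windows, from RefSeq on build GRCm38.p6, run from 250 bases before to 50 bases after an annotated start. They were found for 6 of the 8 genes, all but Arsi and Sulf1. The 100 bases before the start are shown for the activator and for its paralogue, 5′ to 3′ on the gene's strand, because they set the promoter with the hexamer beside one without it. Capitals mark the hexamer. The Sumf1 stretch is chr6:108185584-108185683 on the minus strand and the Sumf2 stretch is chr5:129846890-129846989 on the plus strand.
Sumf1: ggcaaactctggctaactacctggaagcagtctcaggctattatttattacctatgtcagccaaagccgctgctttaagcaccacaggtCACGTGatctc
Sumf2: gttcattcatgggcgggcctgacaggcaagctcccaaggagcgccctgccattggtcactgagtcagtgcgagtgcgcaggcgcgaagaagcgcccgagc

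The hexamer of Sumf1 lay 11 to 6 bases before the start, and the outermost 5′ end annotated for the gene in the same assembly, 8 bases before that start, fell inside it. CACGTG reads the same on both strands and was present in 7.15% of all 32851 windows. The hexamer of Sumf1 had a T before it and an A after it, a form present in 0.974% of all windows and looked for after the sequence had been seen. The general E-box CANNTG, which also counts CACGTG, was present in 72.3% of all windows and in every window found for the members, between 1 match for Sumf2 and 4 in 1 of the 2 windows of Arsg. These matches are letters in a window, and binding was not measured on these arrays.

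Sumf1 (cluster 10546791) was lower in all 3 knockdown samples. Its relative log2 signal was 0.0588, 0.0439 and 0.143 in the 3 empty vector arrays and -0.0439, -0.145 and -0.103 in the 3 knockdown arrays. The groups did not overlap, and a gap of 0.0878 separated the lowest empty vector array from the highest knockdown array. The empty vector mean was 0.0819 ± 0.0535 (SD, n = 3) and the knockdown mean was -0.0973 ± 0.0508 (SD, n = 3). The change was -0.18 ± 0.05 (SE), or 0.883-fold. Of the 8 genes Sumf1 was the 1 with groups that did not overlap, against 10.3% of all genes, 5.95% with knockdown lower and 4.33% with knockdown higher. This contrast entered the choice of the genes, so nothing is read from that count. In a culture measured in bulk, fewer cells expressing a gene and less RNA per cell cannot be told apart.

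**Figure D1:**
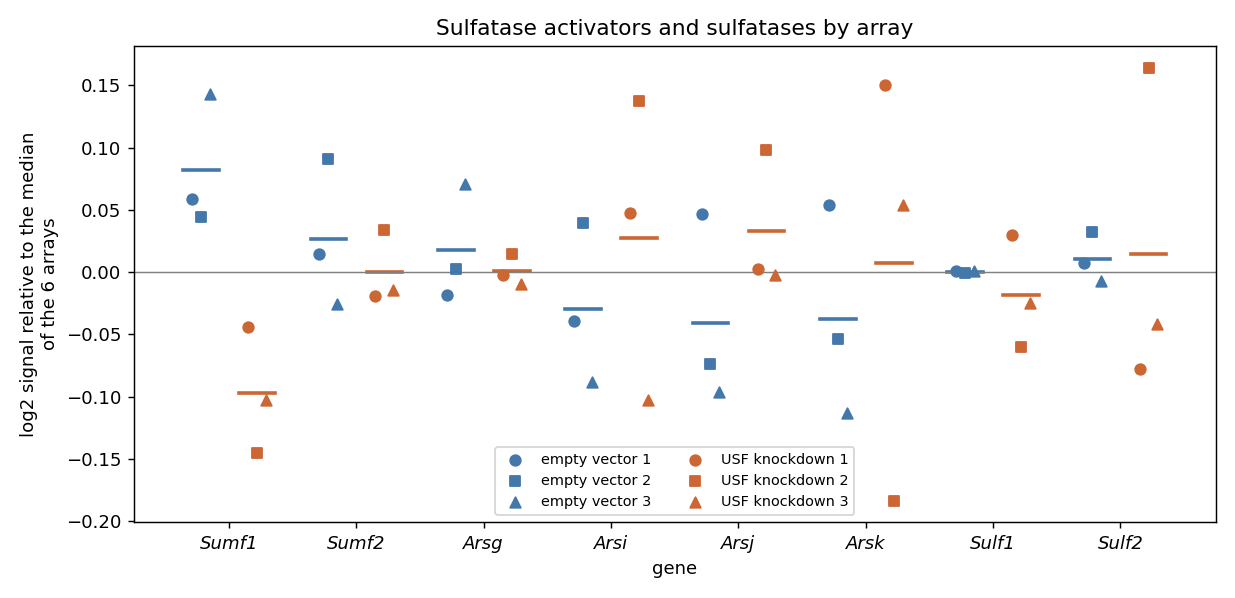
Relative log2 signal (vertical axis, relative to the median of the 6 arrays) of the 8 genes (horizontal axis), with 1 symbol per array, blue for empty vector and orange for knockdown, and a line at each group mean. For Sumf1 the 3 knockdown arrays, at -0.0439 to -0.145, sit below the 3 empty vector arrays, at 0.0439 to 0.143, and for the other 7 genes the colours overlap.

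The size of the Sumf1 difference varied among the knockdown arrays. Against the empty vector mean it was -0.13 on knockdown array 1, -0.23 on array 2 and -0.18 on array 3. The widest array therefore carried the largest difference, and without it the change was -0.16. Leaving out any 1 array gave changes between -0.21 and -0.15, and could not turn the sign because the groups did not overlap. Over all 13 other settings tried the change lay between -0.21 and -0.14, though several of these settings cannot alter it. Usf1 was at -0.281, -0.180 and -0.262 on knockdown arrays 1, 2 and 3, and Usf2 at -0.22, -0.132 and -0.118. Both targets were lowest on array 1, where Sumf1 was highest of the 3, but they ordered arrays 2 and 3 differently. On array 2 the brightness classes also lay apart, with medians of 0.0707 (dimmer) and -0.0282 (brighter). Usf1 was read by a dimmer cluster and Sumf1 by a brighter one. Whether Sumf1 follows the targets from array to array was not tested, and 3 arrays are too few to decide it.

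Sumf2 (cluster 10526087), the paralogue without the activating function, gave overlapping groups. It was at 0.0148, 0.0907 and -0.0257 with empty vector and at -0.0194, 0.0341 and -0.0148 with knockdown. Its change was -0.03 ± 0.05 (SE) or 0.982-fold. Empty vector array 2 was the highest of the 6, and without it the change was 0.0054.

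**Figure D2:**
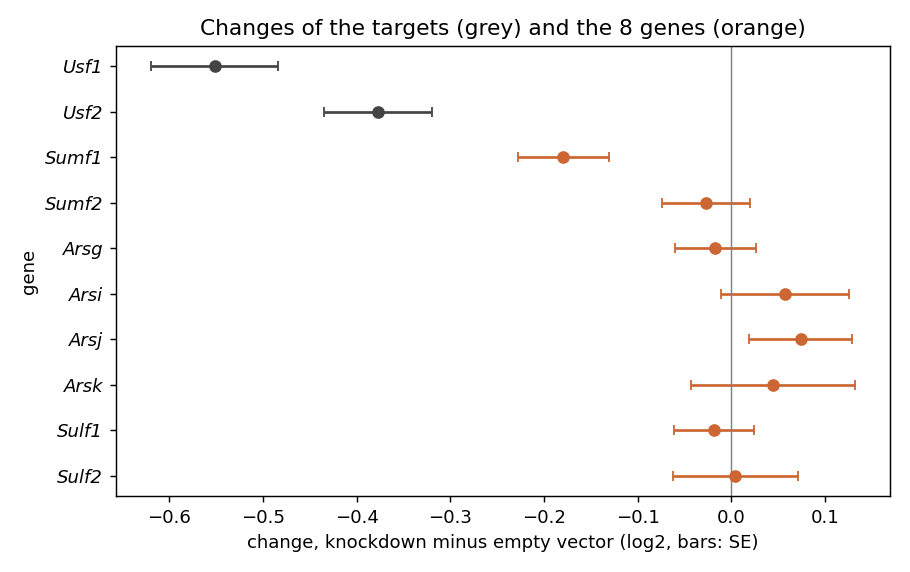
Change in log2 signal (horizontal axis, knockdown minus empty vector, bars show the SE from limma, 3 arrays per group) for the targets Usf1 and Usf2 in grey and the 8 genes in orange. Sumf1 lies at -0.18, between Usf2 at -0.38 and the other 7 genes, which lie between -0.03 and 0.07.

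The lysosomal sulfatases Arsg and Arsk differed in how steady they were. Arsg (cluster 10382271), which removes a sulfate from heparan sulfate, was at -0.0187, 0.0021 and 0.0707 with empty vector and at -0.0021, 0.0145 and -0.0093 with knockdown. All 3 knockdown arrays lay within the range of the empty vector arrays, and the change was -0.02 ± 0.04 (SE). Arsk (cluster 10410721), which acts on sulfated uronic acids, was at 0.0539, -0.0539 and -0.113 with empty vector and at 0.150, -0.184 and 0.0539 with knockdown. It had the widest range of the 8 genes, 0.334, and its knockdown arrays included both its highest and its lowest value. The change was 0.04 ± 0.09 (SE), and it was 0.14 without knockdown array 2 and -0.03 without knockdown array 1.

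Arsi and Arsj gave values above 0 on knockdown array 2 and overlapping groups. Arsi (cluster 10456018) was at -0.0391, 0.0391 and -0.0887 with empty vector and at 0.0472, 0.138 and -0.103 with knockdown. The knockdown arrays held both the highest and the lowest of its 6 values, and the change of 0.06 ± 0.07 (SE) was 0.0019 without knockdown array 2. Arsj (cluster 10495891) was at 0.0469, -0.0742 and -0.0962 with empty vector and at 0.0021, 0.0984 and -0.0021 with knockdown. Its change was 0.07 ± 0.05 (SE) or 1.05-fold, the highest of the 8, and it was 0.04 without knockdown array 2. Leaving out empty vector array 1 gave 0.12.

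The endosulfatases Sulf1 and Sulf2 act outside the cell, where they remove sulfate from heparan sulfate chains and so alter how growth factors such as FGF and Wnt proteins bind. Sulf1 (cluster 10344897) was at 0.0011, -0.0005 and 0.0005 with empty vector and at 0.0297, -0.0600 and -0.0246 with knockdown. Its empty vector arrays were almost identical and lay inside the range of the knockdown arrays, and the change was -0.02 ± 0.04 (SE). Sulf2 (cluster 10489759) was at 0.0071, 0.0321 and -0.0071 with empty vector and at -0.0778, 0.164 and -0.0419 with knockdown. Knockdown array 2 was its highest value and the other 2 knockdown arrays were its lowest. The change of 0.0041 ± 0.07 (SE) therefore joined opposite differences, and without knockdown array 2 it was -0.07.

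Across the 8 genes, 4 changes were above 0 and 4 below, with a median of -0.0064 beside -0.00066 over all genes. Apart from Sumf1, the changes spanned 0.982-fold to 1.05-fold, with standard errors from 0.0424 to 0.0879 beside a median of 0.0561 over all genes. On knockdown array 2 the 8 genes were most spread, with a standard deviation of 0.128 against 0.0354 to 0.0881 on the other arrays. That array gave the value farthest from 0 for 6 of the 8 genes, against 46.4% of all genes, and Sumf2 and Arsg were the exceptions. Leaving out 1 array turned the sign for Sumf2, Arsg, Arsk, Sulf1 and Sulf2, whereas Arsi and Arsj kept theirs in all 6 such fits. Sumf1 kept its sign too, but this was fixed in advance because its groups did not overlap.

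**Figure D3:**
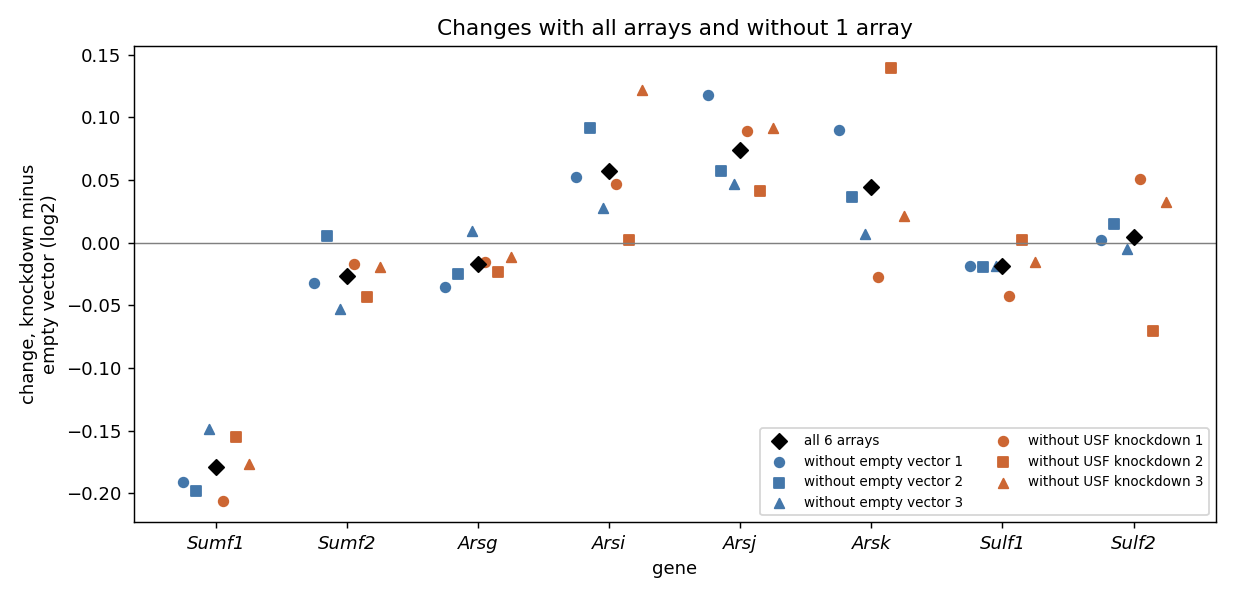
Change in log2 signal (vertical axis, knockdown minus empty vector) of the 8 genes (horizontal axis) with all 6 arrays (black diamond) and without 1 array at a time (blue, an empty vector array left out; orange, a knockdown array left out). Sumf1 stays between -0.21 and -0.15, while Arsk reaches 0.14 and Sulf2 reaches -0.07 without knockdown array 2.

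Markers of the line and of other cells were read on the same arrays. Of 11 neuroblastoma and sympathetic markers 9 were measured, 7 of them in the brighter class, including Phox2a, Hand2 and Gata3, and with Th and Dbh in the dimmer class. Dbh, an enzyme of noradrenaline synthesis, was at 0.120, 0.0730 and 0.131 with empty vector and at -0.121, -0.223 and -0.0730 with knockdown. Its groups did not overlap, and its change of -0.25 ± 0.05 (SE, adjusted p = 0.759 in limma) was larger in size than that of Sumf1. The part of this shift in the value of Sumf1 was not tested. The median change of the 9 markers was 6.3e-04, with 5 above 0 and 4 below. Groups did not overlap for 2 of the 9, beside 10.3% of all genes. These were Dbh and Chga, and Chga was higher, by 0.05 ± 0.04 (SE). The brighter class held 0 of 6 measured fibroblast markers, 0 of 4 for macrophages and blood cells, 1 of 4 for endothelium and 0 of 3 for glia. Of all 16583 genes, 7320 lay in that class. On knockdown array 2, where Arsi, Arsj and Sulf2 were high, the fibroblast markers had a median of 0.203 and the glial markers one of 0.197, while the macrophage and blood cell markers (0.0442) and the endothelial markers (0.0670) lay below the 0.0707 of the dimmer class. Knockdown array 1 gave 4.1e-04 for the fibroblast and -0.0028 for the glial markers, and knockdown array 3 gave -0.0837 and -0.0300. The part of these markers in the values of the 3 sulfatases was not tested.

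Other genes of the sulfatase and heparan sulfate pathways were taken from 6 lists, which held 49 measured genes in all. In limma 0 of them passed an adjusted p of 0.05 over all genes (lowest adjusted p = 0.972), beside 0.00603% of all genes, which is 1 gene. At an unadjusted p under 0.05 there were 7, or 14.3% of the 49 beside 4.25% of all genes. Of these, 2 were higher, beside 1.6% of all genes, and 5 lower, beside 2.65%. Part of this count was known when the lists were written, so it is a description.

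The other sulfatases, which Sumf1 also activates, gave changes between -0.12 and 0.06. Of 7 listed 5 were measured, and 0 were at an unadjusted p under 0.05 in limma, with a median change of -0.02. Sgsh, the lysosomal heparan N-sulfatase, was at 0.0296, 0.120 and 0.0099 with empty vector and at -0.128, -0.0571 and -0.0099 with knockdown. Its groups did not overlap and its change was -0.12 ± 0.05 (SE, limma adjusted p = 0.996). The changes were -0.04 ± 0.04 (SE) for Arsb and -0.02 ± 0.05 for Ids. Both enzymes act on dermatan sulfate, and that of Ids also on heparan sulfate. Changes were 7.4e-05 ± 0.05 for Arsa, which acts on sulfatide, and 0.06 ± 0.06 for Galns, which acts on keratan sulfate. The signs of Arsa and Ids turned when 1 array was left out. Galns was at 0.10, 0.016 and 0.03 when empty vector array 1, empty vector array 2 or knockdown array 3 was left out, and Arsb at -0.06 and -0.024 when empty vector array 2 or 3 was. Windows were found for 4 of these genes, and those of Arsa and Sgsh held CACGTG, as that of Sumf1 did, beside changes of 7.4e-05 and -0.12.

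The 3 endoplasmic reticulum proteins that hold SUMF1 back or carry it onward had 0 genes at an unadjusted p under 0.05 in limma. Erp44, which retains SUMF1, had a change of -0.04 ± 0.05 (SE), the disulfide isomerase P4hb 0.03 ± 0.04, and Lman1, a cargo receptor on the route to the Golgi, -0.05 ± 0.04. All 3 lay in the brighter class, Erp44 by only 4 usable arrays, and had overlapping groups. Erp44 was at -0.0067 without knockdown array 2, and at -0.021 and -0.07 when empty vector array 2 or 3 was left out.

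Genes that build and sulfate heparan sulfate, the substrate of SULF1 and SULF2, were 16 measured of 21 listed, with a median of 0.02. In limma 1 was higher and 1 lower at unadjusted p under 0.05, beside 1.6% and 2.65% of all genes. Hs6st3, a sulfotransferase that adds the kind of sulfate that the SULF enzymes remove, was at -0.0955, -0.0075 and -0.114 with empty vector and at 0.0075, 0.282 and 0.0455 with knockdown. The groups did not overlap, by a narrow gap. Its change of 0.18 ± 0.08 (SE, limma adjusted p = 0.996) was 0.10 without knockdown array 2. Ndst4, an enzyme that exchanges acetyl for sulfate groups on the chain, gave groups that did not overlap and a difference of -0.15 ± 0.04 (SE; adjusted p = 0.996 in limma). Both lay in the dimmer class. Of the core proteins that carry heparan sulfate, 12 measured of 13 listed, 0 were at an unadjusted p under 0.05, with a median of 0.0069. The syndecan Sdc4 had the smallest p among those higher (0.15 ± 0.08, SE) and Hspg2, the basement membrane proteoglycan perlecan, among those lower (-0.13 ± 0.06). Sdc4 was at 0.09 without knockdown array 2 and at 0.24 without knockdown array 3, and Hspg2 was at -0.09 without empty vector array 3.

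Sulfate uptake and activation, which supply the donor for these sulfotransferases, had all 8 listed genes measured and a median of -0.0087. Papss2, which makes the activated sulfate donor, was at 0.0605, 0.0981 and 0.0346 with empty vector and at -0.109, -0.302 and -0.0346 with knockdown. This was the 1 gene of the list at an unadjusted p under 0.05 in limma, beside 4.25% of all genes. Its change of -0.21 ± 0.07 (SE, limma adjusted p = 0.996) was -0.14 without knockdown array 2. The sulfate transporter Slc26a2 had the smallest p among those higher, with a change of 0.05 ± 0.04 (SE).

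Lysosomal breakdown of heparan sulfate, in which SGSH and IDS need the activation by SUMF1, was measured with 7 of 8 listed genes, 2 above and 5 below 0, and a median of -0.11. At an unadjusted p under 0.05 in limma 1 was higher and 3 were lower, beside 1.6% and 2.65% of all genes. Part of this was known when the list was written, so it is a description. Hpse, the endoglycosidase heparanase, was higher by 0.19 ± 0.05 (SE; adjusted p = 0.972 in limma), and Naglu, Idua and Gusb had changes of -0.19 ± 0.05, -0.17 ± 0.04 and -0.11 ± 0.05 (limma adjusted p = 0.996, 0.972 and 0.996). None of these 3 is a sulfatase. The groups did not overlap for any of these 4 genes, beside 10.3% of all genes without overlap. These 4 were named for a small p in the same contrast, so nothing is read from that. Hpse and Idua lay in the dimmer class. Windows were found for 6 genes of this list, and those of Naglu and Sgsh held CACGTG. In the lists of chain building and sulfate uptake a window of Ext2, Extl2 and Slc26a1 held it, beside changes of 0.03, 0.05 and 0.04. No window found for the SUMF1 partners or the core proteins did.

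**Figure D4:**
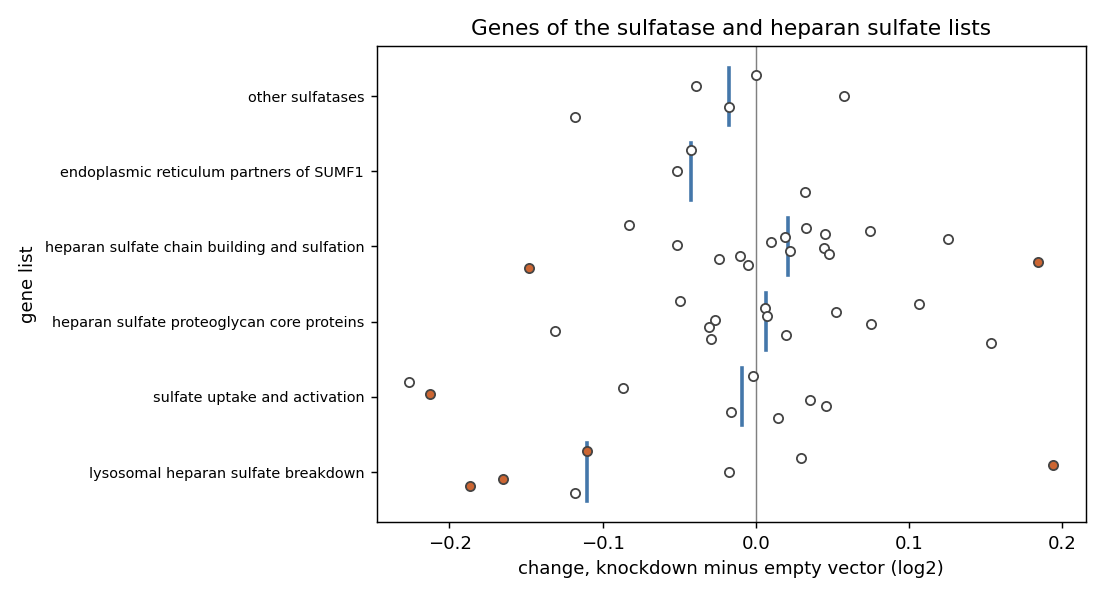
Change in log2 signal (horizontal axis, knockdown minus empty vector) of each measured gene in 6 lists (vertical axis), with 1 circle per gene, filled at an unadjusted limma p under 0.05, and a blue line at the list's median. Ids and Sgsh appear in 2 lists. The medians lie between -0.04 and 0.02 except that of lysosomal heparan sulfate breakdown, at -0.11.

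The genes most like Sumf1 over the 6 arrays were found by Pearson's r among 7319 other genes of the brighter class. They were Ctc1, a telomere maintenance protein (r = 0.993), Sync, an intermediate filament protein (0.991), the endoplasmic reticulum ATPase Tor1a (0.988), the cannabinoid receptor Cnr1 (0.982) and the neuronal splicing factor Nova1 (0.981). Their changes were -0.07 ± 0.04, -0.12 ± 0.04, -0.10 ± 0.04, -0.19 ± 0.04 and -0.22 ± 0.05 (SE), in that order. In all, 132 genes had an r above 0.9, and with 6 arrays in 2 groups such values can arise for genes that differ between the groups in the same direction.

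Over all named genes with a promoter window, 1383 held CACGTG in at least 1 window and 11649 in none. The median change was -0.0033 in the first and -0.0013 in the second. At an unadjusted p under 0.05 in limma 4.63% and 2.45% were lower, and 2.31% and 1.57% were higher. Of the genes with the hexamer 55.2% lay in the brighter class, against 44.7% of the others, and the part of signal strength in these shares was not tested.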

How the data were processed

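In the deposited table, 22891 transcript clusters have values for 6 arrays, read here as log2 and centred on each cluster's median. The log2 base was read from the rounding. Array differences came in whole steps (within 0.05 of one) of single-precision numbers between 4 and 8 or between 8 and 16, judged on values of at least 0.001 in size. The step also gave the brightness class. A chance fit can place a dimmer cluster in the brighter class, more readily where fewer arrays were usable. How many clusters this misplaced was not counted. How background was corrected, arrays normalized and clusters filtered is not given in the sources used here.

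Of the clusters, 18087 had 1 symbol in the platform annotation, 1145 several and 3659 were unnamed. Clusters of a gene were averaged (16583 genes). No filter on low signal was applied. Changes were fitted with limma 3.58.1 in R 4.3.3 (lmFit, eBayes; Benjamini-Hochberg over all genes), and the script was tested on simulated data. Alternatives were array median centring, quantile normalization, array weights, trend and robust variance, a replicate block, leaving out 1 array, the brighter class alone and single clusters. Precision is limited by the number of arrays.

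The members and lists were chosen with earlier results of these data known. The text names the 8 members, both targets, the other sulfatases and SUMF1 partners. It also names list genes at an unadjusted p under 0.05 or with the smallest p in a direction, and the 5 genes most like Sumf1. Markers, Dbh and Chga among them after their values were seen, and genes whose windows hold CACGTG are named as examples. A planned search of protein sequences was not run, and a longer E-box motif is not reported here.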

Additional observations from a re-analysis of the deposited data

How the results depend on the processing

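Over the alternatives, the changes of the 8 genes and both targets and the counts of genes were set against the main fit. Of these values 157 stayed, 17 moved and 2 newly passed. A change of the 8 genes stayed if it lay within the spread between arrays, and a target if it kept its side of the adjusted p of 0.05. For the 8 genes, leaving out 1 array cannot exceed that spread, whatever the values. Trend and robust variance, the replicate block, the brighter class alone and single clusters cannot alter their changes, as each gene has 1 cluster. A turned sign could also count as stayed. Stability of the 8 genes is therefore not read from the 157. A count stayed if it was within 1.5 times the main count in either direction. Array weights put a weight of 33 on knockdown array 1 and 0.136 and 0.441 on arrays 2 and 3, so that its knockdown mean is close to 1 array. With these weights Arsk was at 0.21, Sulf1 at 0.028 and Arsa at -0.036, Usf1 and Usf2 were at -0.62 and -0.46 and passed in limma, 1111 genes passed an adjusted p of 0.05 and 4356 were at an unadjusted p under 0.05, with 12 and 22 in the pathway lists; 12 of the other named genes newly passed. Trend and robust variance gave 6 genes at an adjusted p under 0.05. With the replicate number as a block 0 passed (636 at an unadjusted p under 0.05, beside 705). Sumf1 was at -0.18 as in the main fit. Each block holds 1 array of each group, so this setting leaves every change as it was. Deviations from the group means correlated by 0.0031, 0.0819 and 0.0364 between same-numbered arrays of the 2 groups. Between arrays of unlike number they correlated by -0.0942 to 0.0535. With 3 arrays per group these values cannot decide whether the numbers pair the samples. In the brighter class alone 3 pathway genes were at an unadjusted p under 0.05, beside 7, from fewer genes. Without 1 array, 0 to 1 genes passed, lost on leaving out any empty vector array or knockdown array 1, and 369 to 1248 were at an unadjusted p under 0.05. These were 433 and 369 without empty vector arrays 2 and 3, and 1248 and 1228 without knockdown arrays 2 and 3. The pathway count was 5 to 10. Arsa ranged from -0.0481 (without knockdown array 3; -0.0148 without empty vector array 2) to 0.0275, and Ids from -0.0479 to 0.0173 (empty vector array 3 left out; 0.0146 with knockdown array 2 left out). The cause of these shifts was not tested.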
